A study of Mus musculus with 4 samples.

Results

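The genes described here encode the machinery that licenses replication origins and copies DNA at the fork. The list was set by name and holds 42 genes, and all 42 are among the 20380 genes of the screen table. By role, 14 belong to licensing, 8 to activation of the helicase and 20 to the enzymes of the fork. The screen used E14, an established mouse embryonic stem cell line with a tdTomato reporter of MERVL, an endogenous retrovirus that marks a rare 2-cell-like state of these cultures. A pooled lentiviral CRISPR-Cas9 library (lentiCRISPRv2 backbone) was delivered to about 130000000 cells over 24 h with 4 ug/mL polybrene, followed by puromycin at 2 ug/mL for 48 h. At day 5 about 500000 reporter-positive cells were sorted by FACS. The guides of genomic DNA were then sequenced in 2 libraries of MERVL-positive cells and 2 libraries of total cells, all with the same line, reporter and library, and titled as sequencing repeats.

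Before S phase, the origin recognition complex, Cdc6 and Cdt1 load rings of Mcm2 to Mcm7 onto DNA, a step called licensing. In S phase the kinase Cdc7 with its partner Dbf4, together with Cdc45, the GINS complex and Mcm10, turns the loaded ring into a moving helicase. Polymerase alpha-primase then starts each strand, replication factor C loads the clamp PCNA, polymerases epsilon and delta extend the leading and lagging strand, replication protein A covers single-stranded DNA, and Fen1 and Lig1 join the Okazaki fragments. Embryonic stem cells cycle fast, and most of these genes are needed by every dividing cell. Slowed replication forks are known to raise the share of 2-cell-like cells in such cultures.

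The authors' deposited table holds 1 comparison of MERVL-positive with total cells per gene and no value per library, which leaves depth unknown and gives no gene an error or a spread over libraries. For each gene it gives a log2 fold change, a p for negative and one for positive change, and how many of its guides passed a threshold for negative or for positive change, counted here as guides down and guides up. That threshold is loose, since 38.0% of all guides against genes were down and 37.4% were up. The table does not name the group on top of the ratio. A positive value is taken to mean that guides were more abundant in MERVL-positive than in total cells, which is likely but not settled. This rests on the title, in which deficiency of Ints7 activates MERVL, and on rank 157 of 22510 for positive change that Ints7 has per the authors' deposited table, so it uses the study's own result. The anchor is weak, since Ints7 had a log2 fold change of only 0.14, 3 guides up and 1 down, and a false discovery rate of 0.931 for positive change per the authors' deposited table. If total cells were on top instead, each direction given here would be turned round. About 3.84 sorted cells stood behind each guide of the library, and the cell line's markers could not be checked, because guides and not transcripts were measured.

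Guides against replication genes lay on the low side of the screen, most of all those against licensing genes. The 42 genes had a median log2 fold change of -0.28 against -0.021 for all 20380 genes and 0.019 for 998 non-targeting guides per the authors' deposited table. A value below 0 was held by 32 of the 42, while 52% of all genes had one. By role, 14 of 14 licensing genes, 6 of 8 helicase activation genes and 12 of 20 fork genes were below 0 per the authors' deposited table, with medians of -0.34, -0.24 and -0.033. The fork median depends on which genes are counted, since over fork genes with 6 guides it was -0.19, against -0.022 for all genes with 6 guides.

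**Figure D1:**
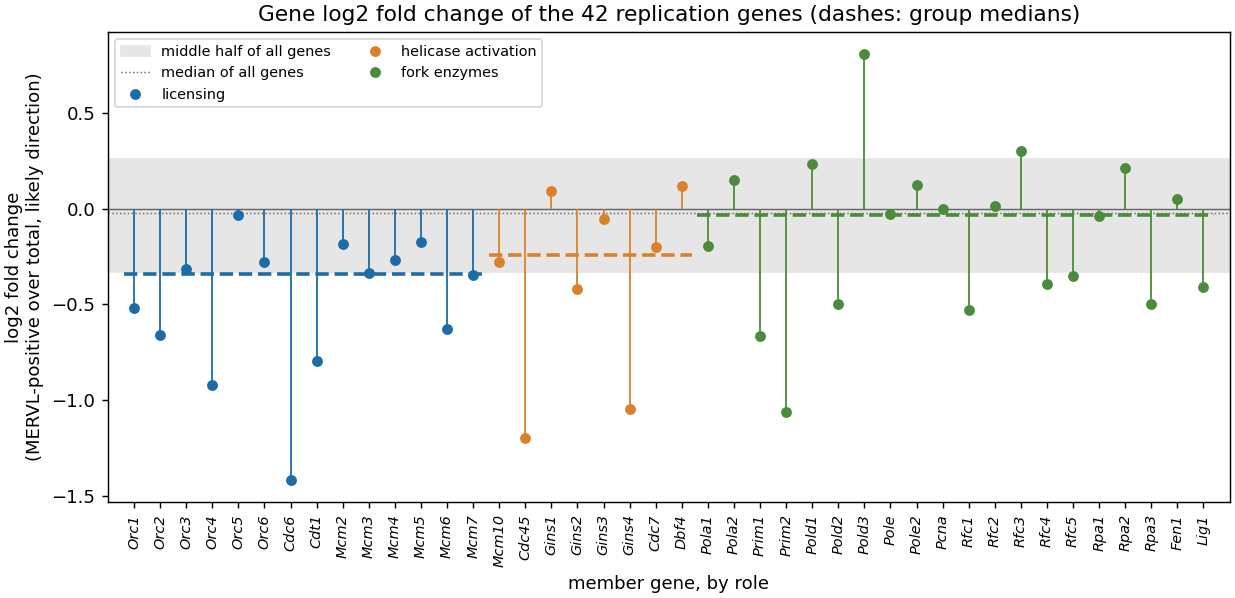
Log2 fold change of each of the 42 genes, ordered and coloured by role, with group medians as dashes and the interquartile range of all genes as a grey band. All 14 licensing genes sit below 0, from -1.42 for Cdc6 to -0.034 for Orc5, while fork genes lie on both sides of 0, from -1.06 for Prim2 to 0.81 for Pold3.

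An unadjusted p under 0.05 for negative change was held by 6 of the 42 genes, against 5.07% of all genes per the authors' deposited table. They were Cdc45, Orc4, Mcm2, Cdc6, Cdt1 and Gins4, that is 4 licensing genes, 2 helicase activation genes and no fork gene. For positive change 1 of the 42 passed, the polymerase delta subunit Pold3, where 5.02% of all genes did so per the authors' deposited table. None of the 42 passed a false discovery rate of 0.05 in either direction, for which the shares of all genes were 0.00491% for negative and 0% for positive change per the authors' deposited table. The lowest false discovery rate among the 42 was 0.846 for negative and 0.985 for positive change per the authors' deposited table. No member therefore stands as a called gene of this screen, and no p over the list as a whole is given.

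Of the 42 genes, 8 were in the lowest 10% of all genes by log2 fold change, at or below -0.65, and 1 was in the highest 10%, at or above 0.51. The 8 were Cdc6, Cdc45, Prim2, Gins4, Orc4, Cdt1, Prim1 and Orc2. Licensing supplied 4 of them, helicase activation 2 and the primase 2. More guides were down than up in 29 of the 42 genes, against 41.5% of all genes, and more were up than down in 7, against 40.2% of all genes per the authors' deposited table. That count was 13 of 14 for licensing, where no gene had more guides up than down and Mcm4 had equal numbers.

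**Figure D2:**
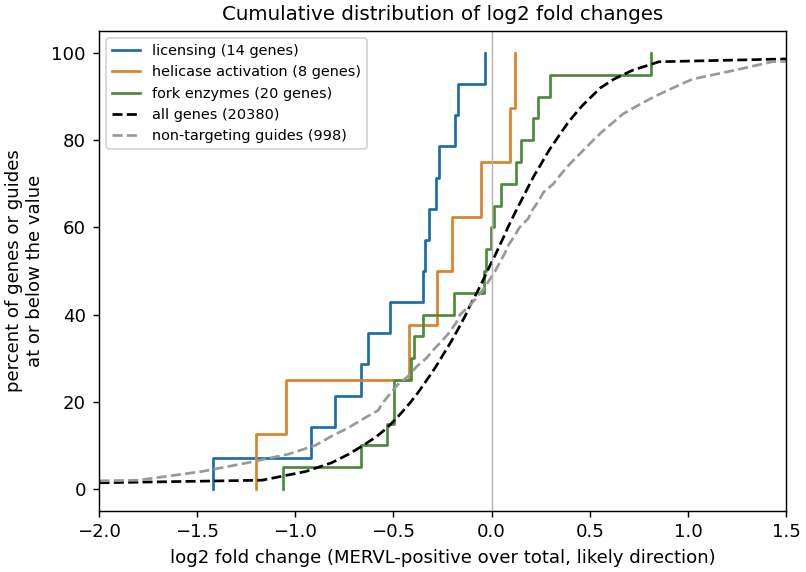
Percent of genes (or of single non-targeting guides) at or below each log2 fold change, for the 3 role groups, all genes and non-targeting guides. The licensing curve reaches its top at -0.034 and the fork curve at 0.81. At the low end the licensing curve starts at -1.42 and the helicase activation curve at -1.20. Above that start, the helicase activation curve lies left of the licensing curve for a short stretch.

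As a feature that played no part in choosing the genes, the promoters of many of them carry the binding motif of E2F, the family of transcription factors that switches on S-phase genes. RefSeq windows of 300 bases, from 250 before to 50 after a start site in GRCm38.p6, were found by symbol for 35 of the 42 genes, and 7 of these 35 have several windows, each searched. They were searched on both strands, with overlapping matches counted, for the words TTTCCCGC, TTTCGCGC, TTTGCCGC and TTTGGCGC. At least 1 match was found for 15 of 35 replication genes, which is 42.9%, against 3.37% of 15185 screened genes with a window and 2.26% of all 32851 windows. The count was 8 of 13 for licensing, 1 of 5 for helicase activation and 6 of 17 for fork genes. Median log2 fold changes of the 15 genes with and the 20 without a match were -0.32 and -0.28, a small difference that was not tested. These counts and medians leave out the genes without a window, Mcm4, Gins1, Gins2, Gins4, Prim2, Pole and Rfc2. Among them are Prim2 at -1.06 and Gins4 at -1.04, but also Gins1 at 0.092 and Rfc2 at 0.012 per the authors' deposited table. The sequences shown are the 3 windows with a match before the start site in a stretch that holds no annotated gene, and there is 1 from each role group. They are printed 5′ to 3′ on the gene's strand, from 250 bases before the start site up to it, with matches in capitals. The Mcm6 stretch is chr1:128359706-128359955 (minus strand), that of Gins3 is chr8:95633309-95633558 (plus strand) and that of Rfc3 is chr5:151651209-151651458 (minus strand), all in GRCm38.p6.
Mcm6: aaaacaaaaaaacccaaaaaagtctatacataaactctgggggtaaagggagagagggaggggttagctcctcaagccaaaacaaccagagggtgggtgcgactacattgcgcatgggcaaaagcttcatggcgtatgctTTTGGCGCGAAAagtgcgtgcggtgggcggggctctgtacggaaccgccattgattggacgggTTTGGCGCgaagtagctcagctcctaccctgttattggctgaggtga
Gins3: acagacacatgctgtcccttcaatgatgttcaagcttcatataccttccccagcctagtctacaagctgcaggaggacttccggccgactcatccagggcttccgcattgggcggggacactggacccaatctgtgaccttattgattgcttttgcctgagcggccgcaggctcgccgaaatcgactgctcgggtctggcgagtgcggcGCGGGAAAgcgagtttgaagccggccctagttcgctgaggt
Rfc3: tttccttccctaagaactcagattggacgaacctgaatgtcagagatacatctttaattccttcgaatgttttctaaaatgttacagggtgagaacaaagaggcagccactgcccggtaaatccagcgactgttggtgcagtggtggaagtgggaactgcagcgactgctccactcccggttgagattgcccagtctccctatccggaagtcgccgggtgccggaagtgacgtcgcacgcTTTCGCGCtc
Mcm6 has 3 matches, the farthest 110 and the nearest 47 bases before the start site, and the farther pair overlaps on opposite strands. The match of Gins3 begins 41 bases and that of Rfc3 10 bases before it. The log2 fold changes of these 3 genes were -0.63 for Mcm6, -0.052 for Gins3 and 0.30 for Rfc3 per the authors' deposited table. A match is a description of these letters and does not show that a factor binds there.

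The origin recognition complex, which marks origins and recruits the loaders, had values below 0 for all 6 subunits, with a median of -0.42. Orc4, an ATPase-fold subunit on chromosome 2 from 48902824 to 48952902 in GRCm38.p6, stood at a log2 fold change of -0.92 (ratio 0.529), and 6 of its 6 guides were down per the authors' deposited table. Its p for negative change was 0.00434 at rank 95 of 22510 entries, and its false discovery rate was 0.846 per the authors' deposited table. It was the only one of the 42 genes with every guide down. Orc2, the partner of Orc3 in the core of the complex, had a value of -0.66 with 4 of 6 guides down and none up, and a p for negative change of 0.269 per the authors' deposited table. Orc1, the ATPase subunit that meets Cdc6, had a value of -0.52 with 5 of 6 guides down and 1 up per the authors' deposited table. Its p for negative change, 0.0709, missed 0.05 per the authors' deposited table.

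Orc3 had a log2 fold change of -0.32 and Orc6, the subunit least tightly bound to the others, one of -0.28 per the authors' deposited table. Orc5 was closest to 0, at -0.034 with 2 guides down and none up per the authors' deposited table. Of the 36 guides against the complex, 24 were down and 5 up per the authors' deposited table. That is 66.7% down and 13.9% up, against 38.0% and 37.4% of guides over all genes. No subunit had more guides up than down, and the values still spread widely, from -0.92 to -0.034.

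Both helicase loaders were among the lowest of the 42. Cdc6, the ATPase that completes the loading complex on Orc1, lies on chromosome 11 from 98907709 to 98923942 in GRCm38.p6. Its log2 fold change of -1.42 (ratio 0.374) was the lowest of the 42 genes, and 4 of its 6 guides were down and 1 up per the authors' deposited table. By log2 fold change it stood at place 192 from the bottom of 20380 genes. Its p for negative change was 0.0386 and that for positive change 0.133 per the authors' deposited table. Cdt1, which brings the Mcm ring to the origin and is destroyed in S phase to prevent a second round, lies on chromosome 8 from 122568015 to 122573130. It had a value of -0.80 with 3 of 5 guides down and 2 up, and a p for negative change of 0.0431 per the authors' deposited table. Guides against Cdt1 thus did not all point the same way.

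The 6 subunits of the helicase ring had values from -0.63 to -0.17, a narrower range than that of the origin recognition complex, and all were below 0 per the authors' deposited table. Mcm6, on chromosome 1 from 128331575 to 128359705, was the lowest at -0.63, with 4 guides down and 2 up of 6 per the authors' deposited table. Mcm7 had a value of -0.35, Mcm3 of -0.34, Mcm4 of -0.27, Mcm2 of -0.19 and Mcm5 of -0.17 per the authors' deposited table. None of the 6 was in the lowest 10% of all genes. Of their 34 guides, 47.1% were down and 29.4% up per the authors' deposited table.

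Mcm2 is the ring subunit that also carries parental histones. It had the only p for negative change under 0.05 in the ring, 0.0327, with 1 of 5 guides down and none up per the authors' deposited table. By fold change, 4 of the other ring subunits were lower. Mcm7 had the next lowest p of the ring, 0.0759, with 3 guides down and 2 up per the authors' deposited table.

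An intron of Mcm7 holds the microRNA genes Mir25, Mir93 and Mir106b, and the screen has separate guides against them, which aim at the same locus outside the coding sequence. The main mature forms in RefSeq (GRCm38.p6) are shown with the seed, bases 2 to 8, in capitals, because mmu-miR-93-5p and mmu-miR-106b-5p share a seed that mmu-miR-25-3p lacks.
mmu-miR-106b-5p: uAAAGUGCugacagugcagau
mmu-miR-93-5p: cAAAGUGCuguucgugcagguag
mmu-miR-25-3p: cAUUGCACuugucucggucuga
They lie on the minus strand of chromosome 5, from 138165787 to 138165807, from 138165574 to 138165596 and from 138165332 to 138165353 in that order, inside Mcm7, which spans 138164583 to 138172111. The log2 fold change of the entry mmu-mir-106b was 0.48, and 3 of its 4 guides were up and 1 down per the authors' deposited table. The entry mmu-mir-93 had a value of 0.17 with 1 of 3 guides up and 1 down, and mmu-mir-25 had 0.027 with 1 of 3 guides down and none up per the authors' deposited table. Unlike the -0.35 of Mcm7 itself, all 3 values were above 0. Over all 1132 microRNA entries the median was 0.016, and 48.9% were below 0 per the authors' deposited table. None of the 3 had a p under 0.05 in either direction, the lowest being 0.190 for positive change of mmu-mir-106b per the authors' deposited table. These differences between entries of 1 locus were not tested.

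Helicase activation held 2 genes with values under -1, Cdc45 and Gins4. Cdc45, which joins the ring and GINS to form the active helicase, lies on chromosome 16 from 18780447 to 18811972 in GRCm38.p6. Its log2 fold change was -1.20 (ratio 0.436), and 5 of its 6 guides were down and 1 up per the authors' deposited table. Its p for negative change of 0.00321 at rank 73 of 22510 entries was the lowest of the 42 genes, with a false discovery rate of 0.846 per the authors' deposited table. Gins4, the Sld5 subunit of GINS, on chromosome 8 from 23226610 to 23237668, had a value of -1.04 with 4 guides down and 2 up of 6, and a p for negative change of 0.0476 per the authors' deposited table.

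The other GINS subunits did not share that value. Gins2 had a log2 fold change of -0.42, Gins3 of -0.052 and Gins1 of 0.092 per the authors' deposited table. The complex is an obligate set of 4 different subunits, and the values of its genes here ranged over more than 1 log2 unit. Of its 24 guides, 45.8% were down and 33.3% up per the authors' deposited table.

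Mcm10, which helps the activated helicase to start moving, had a value of -0.28 with 3 guides down and 2 up per the authors' deposited table. The kinase that triggers activation was near the middle of the screen. Its catalytic subunit Cdc7 had a value of -0.20 with 3 of 6 guides down and none up per the authors' deposited table. Its regulatory subunit Dbf4 had 0.12 with 2 guides down and 3 up, and a p for positive change of 0.101 per the authors' deposited table. The 2 subunits thus lay on opposite sides of 0, each within the interquartile range of all genes, which ran from -0.33 to 0.26.

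**Figure D3:**
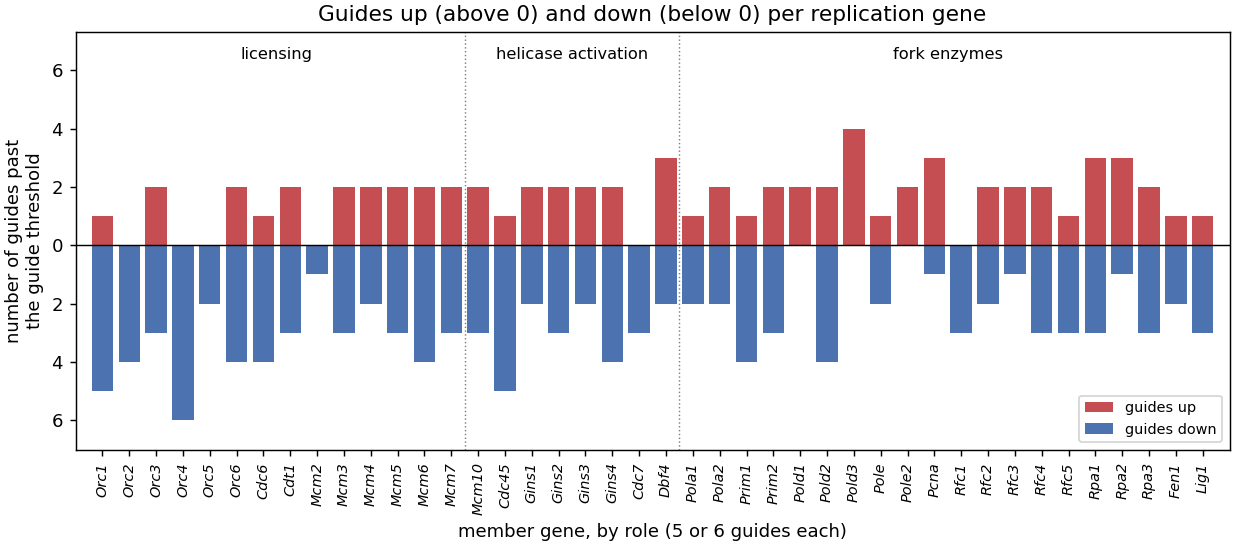
Number of guides past the guide threshold per gene, up above the axis and down below it, with the role groups divided by dotted lines. Orc4 has 6 guides down and none up, Orc1 and Cdc45 have 5 down, and Pold3 has 4 up and none down.

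Among fork enzymes, polymerase alpha-primase was the complex with the lowest median, -0.43 over 4 genes. Prim2, the large primase subunit, on chromosome 1 from 33453808 to 33669808 in GRCm38.p6, had a log2 fold change of -1.06, the third lowest of the 42 per the authors' deposited table. Only 3 of its 6 guides were down and 2 were up, and its p for negative change was 0.238 per the authors' deposited table. Prim1, the catalytic primase subunit, had a value of -0.66 with 4 of 5 guides down and 1 up, and a p for negative change of 0.0890 per the authors' deposited table. The polymerase subunits of the same complex lay closer to 0, with Pola1, the catalytic subunit, at -0.19 and Pola2, its accessory subunit, at 0.15 per the authors' deposited table.

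Over their listed genes, polymerases delta and epsilon had medians above 0, at 0.23 and 0.048. Pold3, an accessory subunit of polymerase delta also used in break-induced replication, lies on chromosome 7 from 100082110 to 100121502. Its log2 fold change of 0.81 (ratio 1.75) was the highest of the 42 genes, and 4 of its 5 guides were up and none down per the authors' deposited table. Its p for positive change was 0.0430 at rank 977 of 22510 entries, with a false discovery rate of 0.985 per the authors' deposited table. Pold1, the catalytic subunit, had a value of 0.23 with 2 of 5 guides up and none down per the authors' deposited table. Pold2, the subunit that links Pold1 and Pold3, had -0.50 with 4 of 6 guides down and 2 up per the authors' deposited table. The 3 listed genes of this polymerase thus did not share a direction. Pold4, a subunit outside the list, had 0.57 with 4 of 6 guides up and 1 down per the authors' deposited table.

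Pole, the catalytic subunit of polymerase epsilon, had a value of -0.029, and Pole2, the subunit that links it to GINS, had 0.13 with 2 guides up and none down per the authors' deposited table. Outside the list, the subunits Pole3 and Pole4 were both below 0 per the authors' deposited table. Pole3 had -0.15 with 2 of 6 guides down and 1 up, and Pole4 had -0.25 with 3 of 6 down and 1 up. Over the listed genes, 4 of the 16 polymerase delta guides and 2 of the 12 polymerase epsilon guides were down per the authors' deposited table. Both are smaller shares than the 38.0% of all genes, and both rest on few guides.

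Pcna, the sliding clamp, stood at a log2 fold change of -0.0021 with 1 guide down and 3 up of 6 per the authors' deposited table. The clamp loader had values of -0.53 for Rfc1, its large subunit, -0.39 for Rfc4, -0.35 for Rfc5, 0.012 for Rfc2 and 0.30 for Rfc3 per the authors' deposited table. Rfc1 had 3 of 6 guides down and none up, yet a p for negative change of 0.228 per the authors' deposited table. Rfc2 had a p for negative change of 0.0511, just above the threshold, with 2 guides down and 2 up per the authors' deposited table. The loader subunits that form 1 ring in the cell thus lay on both sides of 0.

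For replication protein A, Rpa3, the smallest subunit, had a value of -0.50, Rpa1, the large subunit that holds most of the DNA contact, had -0.037 and Rpa2, the subunit phosphorylated under replication stress, had 0.21 per the authors' deposited table. Rpa1 had 3 guides down and 3 up per the authors' deposited table. Fen1, the flap nuclease, had a value of 0.050 and Lig1, the ligase that seals the nick, one of -0.41 per the authors' deposited table. None of these 5 genes had a p under 0.05 in either direction.

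**Figure D4:**
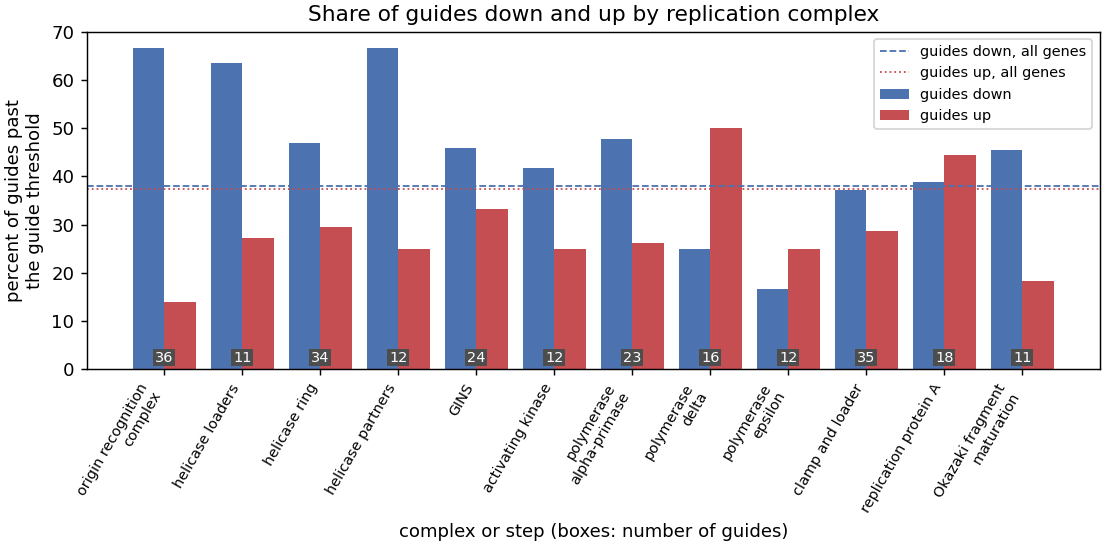
Percent of guides down and up for each replication complex or step, with the number of guides in a box and the shares over all genes as horizontal lines. The origin recognition complex has 66.7% of 36 guides down, the helicase ring 47.1% of 34, and the clamp with its loader 37.1% of 35.

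Summed by role, 47 of the 81 guides against licensing genes were down and 18 up, which is 58.0% and 22.2% per the authors' deposited table. For helicase activation 24 of 48 guides were down and 14 up per the authors' deposited table. For the fork enzymes 42 of 115 guides were down and 37 up, 36.5% and 32.2%, against the 38.0% and 37.4% of all genes per the authors' deposited table. The order of the 3 groups was the same by median log2 fold change, by share of guides down and by median rank for negative change, which were 5319 for licensing, 7327 for helicase activation and 7391 for the fork, against 10923 for all genes. By rank the last 2 are nearly equal. These measures come from the same guides and the same comparison, so their shared order is no separate support. The difference between the groups was not tested, since genes and guides are no replicates and the groups have no value per library.

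A further count looks at genes for which no guide passed the threshold for positive change, or none passed it for negative change. Guides short of the threshold are not counted, so their direction is unknown. No guide up was found for 6 of the 42 genes, Orc2, Orc4, Orc5, Mcm2, Cdc7 and Rfc1, against 6.56% of all genes with 5 or 6 guides per the authors' deposited table. Of these, 4 belong to licensing. No guide down was found for 3 of the 42, Pold1, Pold3 and Pole2, against 6.42% of all such genes per the authors' deposited table. The second count is near its background. Of the same polymerases, Pold2 had 4 guides down and Pole 2.

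**Figure D5:**
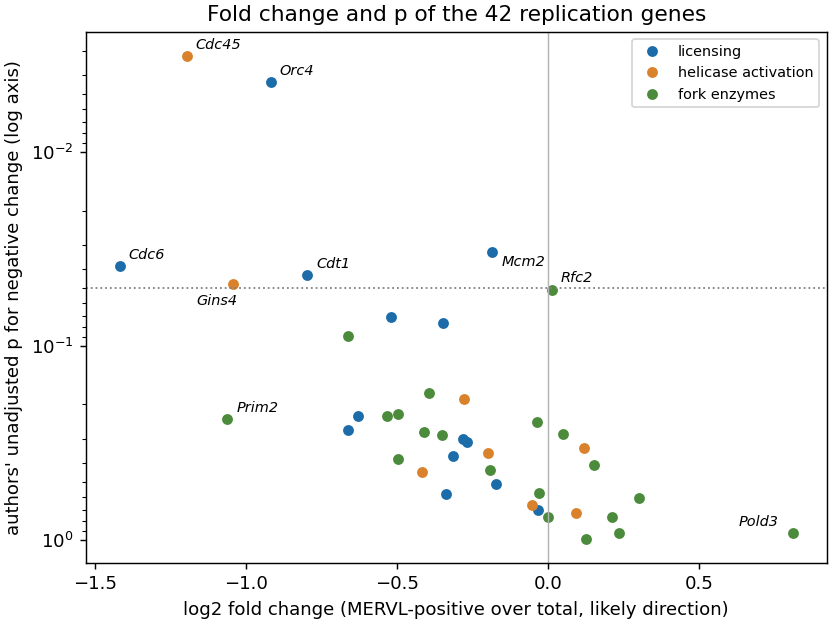
Log2 fold change against the authors' unadjusted p for negative change (log axis, smallest at the top) for the 42 genes, with 0.05 as a dotted line. Cdc45 and Orc4 combine a low value with the lowest p, Prim2 has a low value with a p of 0.238, and Mcm2 passes 0.05 with a value of -0.19.

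Other genes of replication that are not in the list were nearer to the middle of the screen. They comprise 40 genes, among them origin firing factors, alternative clamp loaders, RNase H2, topoisomerases, nucleotide synthesis enzymes, cyclins with their kinases and the ubiquitin ligase that destroys Cdt1. Their median was -0.070, with 23 of 40 below 0, 38.8% of guides down and 36.1% up per the authors' deposited table. For negative change 2 of 40 had an unadjusted p under 0.05, against 5.07% of all genes per the authors' deposited table. For positive change none did, against 5.02% of all genes, with a lowest p of 0.0695 per the authors' deposited table. Fbxo5, the inhibitor of the anaphase-promoting complex also known as Emi1, had the lowest value, -1.01, with 5 of 6 guides down and a p for negative change of 0.0210 per the authors' deposited table. Tk1, the thymidine kinase, had -0.59 with 5 of 6 guides down and a p of 0.00846 per the authors' deposited table. Donson, a factor of helicase assembly, had the highest value, 0.62, with 4 of 5 guides up per the authors' deposited table.

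The checkpoint that guards the fork had values on both sides of 0. The 13 genes of the ATR-CHK1 checkpoint had a median of 0.065, with 6 of 13 below 0, 40.8% of guides down and 38.2% up per the authors' deposited table. Hus1, of the checkpoint clamp, was its lowest at -0.91 with 5 of 6 guides down and a p for negative change of 0.0347 per the authors' deposited table. In all, 3 of the 13 were in the lowest 10% of all genes, against 4 of 14 for licensing, and 3 were in the highest 10%, against 0 for licensing. Besides Hus1, the low ones, named after their values were seen, were Wee1 at -0.80 and Rad17 at -0.66 per the authors' deposited table. Topbp1, the activator of ATR that also helps origins fire, was its highest at 0.83 with 5 of 6 guides up, and the kinase Chek1 had 0.57 with a p for positive change of 0.0262 per the authors' deposited table. The 30 kinetochore and spindle checkpoint genes, another set needed in every division, had a median of 0.017 with 14 of 30 below 0 per the authors' deposited table. Of these 30, 1 had a p under 0.05 for negative change, Nsl1 at -0.71, against 5.07% of all genes per the authors' deposited table. For positive change 4 of the 30 had one, against 5.02% of all genes per the authors' deposited table. These 4 were Bub1b at 0.91 with 6 of 6 guides up, Mad1l1 at 0.76, Nuf2 at 0.43 and Casc5 at 0.41 per the authors' deposited table. Mis12 at -1.20 and Spc25 at 0.91 were the extremes of that list per the authors' deposited table. These sets are given side by side with no test between them.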

How the data were processed

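Guide abundance was compared in 4 libraries, 2 of MERVL-positive and 2 of total cells, and 1 table was used. MAGeCK and the mm10 build are named in the submitters' processing notes. Its version, settings and normalization: not given in the sources used here. Per the file headers, the authors deposited for each of 22510 entries the count of guides, the count of guides past a threshold in each direction, a score, a p-value, a false discovery rate, a rank and a log2 fold change, whose 2 columns are the same. Depth is unknown, no value per library was used, and no test was run. The p-values may rest on technical spread, as the titles name sequencing repeats and no separate cultures.

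By their names, 20380 entries are genes, 1132 microRNAs and 998 non-targeting guides. Medians, counts and shares were computed with pandas 2.3.3. Several of the counts, but no median or share, were tested on simulated data. All 42 members matched a RefSeq symbol (GRCm38.p6, the coordinates of mm10). Mcm10 was placed with helicase activation by its role. The members and all lists were chosen with earlier results of these data known. All members are named, and of the 3 other lists those with an unadjusted p under 0.05 and the extremes. Further genes of these lists, such as Pold4, Pole3, Pole4 and those tied to Cdt1, were named after values were seen. The motif and the sequences shown were chosen after values were seen. Alternatives were thresholds, guides per gene, centring, mean against median, the place of Mcm10 and leaving out the lowest member.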

Additional observations from a re-analysis of the deposited data

How the results depend on the processing

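The number of replication genes with a p for negative change under 0.05, which was 6, was 2 at a threshold of 0.01, 10 at 0.1 and 0 at a false discovery rate of 0.05. The number for positive change, 1, was 0 at a threshold of 0.01, 0 among genes with 6 guides and 0 at a false discovery rate of 0.05. At 0.05 the shares of all genes were 5.07% for negative and 5.02% for positive change. Of all 16270 genes with 6 guides, 820 had a p for positive change under 0.05. Shares of all genes at 0.01 and 0.1 were not counted, so the counts there have no background. The helicase activation value was -0.37 as a mean in place of the median of -0.24. The fork value of -0.033 was the least steady: -0.14 as a mean, -0.19 over genes with 6 guides, -0.012 after subtracting the median of all genes and -0.052 after subtracting that of non-targeting guides. The fork genes left out by the 6-guide limit were Pold1, Pold3, Rfc3 and Fen1, all above 0, and Prim1 at -0.66. The cause of these shifts was not tested. Of 33 alternatives for counts and medians, 22 stayed within 1.5 times, and no median changed sign. The 16 alternatives for guide shares moved them by at most 4.76 percentage points. Each was set against a binomial interval with guides as trials. As guides are no replicates, that interval is no valid error, and nothing is read from it. No paired analysis was possible because the table has 1 comparison per gene and no value per library, and for the same reason no library could be left out. Unknown depth and few sorted cells per guide limit every single value.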

Other observations

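Among the other replication genes, of which 23 of 40 were below 0, some that remove or inhibit Cdt1 are given by value. A cyclin and its kinases are given with them. Chosen after their values were seen, Cul4b had a log2 fold change of -0.84, Dtl of -0.81, Ddb1 of -0.45 and Cul4a of -0.40 in the authors' deposited table. These encode the CRL4 ubiquitin ligase that removes Cdt1 in S phase, and Ddb1 and the cullins also serve other substrates. Ccna2, a cyclin whose kinase also marks Cdt1 for removal, stood at 0.22 in the authors' deposited table. The cyclin-dependent kinases Cdk2 and Cdk1 stood at -0.030 and -0.54 in the authors' deposited table. Gmnn, the Cdt1 inhibitor geminin, stood at -0.36 in the authors' deposited table. None of these genes had an unadjusted p under 0.05 in either direction, the lowest being 0.108 for negative change of Cdk1 and 0.119 for Cul4a.

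Fold change and p ordered the 42 genes differently in places. Prim2 was at place 3 by log2 fold change and place 16 by p for negative change, Gins2 at 14 and 30, while Mcm2 was at 26 and 3 and Rfc2 at 33 and 7. Across the 42 genes, which are not independent replicates, the Spearman correlation between log2 fold change and rank for negative change was 0.73, and over all 20380 genes it was 0.67.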
